A study of Mus musculus with 8 samples.

Results

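The nuclear-encoded genes of the mitochondrial respiratory chain were followed in RNA of mouse regulatory T (Treg) cells. A gene was taken if its symbol starts with Nduf, Uqcr, Atp5, or Cox and a digit from 4 to 8, or is Sdha, Sdhb, Sdhc, Sdhd or Cyc1, and if its mean over the 8 libraries was at least 10 normalized counts. Of 52459 symbols, 101 had such a name and 86 passed the minimum. These 86 members held 75 subunits, 36 of complex I, 4 of complex II, 9 of complex III, 11 of complex IV and 15 of complex V, together with 8 assembly factors of complex I and 3 other genes, Cox7a2l, Atp5s and Atp5sl. The 15 names below the minimum were 7 pseudogenes and the paralogs Cox4i2, Cox6a2, Cox6b2, Cox7a1, Cox7b2, Cox8b, Cox8c and Ndufa4l2. The name nearest below the minimum was Cox7a1 with a mean of 9.07 normalized counts, and the nearest above it was Ndufs5 with 22.6.

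The libraries came from CD4+CD25hi Treg cells of the C57BL/6 strain, sorted from spleen and lymph nodes that were pooled from several female mice for each sample. The mice were heterozygous for Foxp3-YFPcre, in which the Foxp3 promoter on the X chromosome drives Cre, on a Stim1 fl/fl Stim2 fl/fl background. Cells without YFPcre are labelled WT, and cells with YFPcre are labelled Stim1 fl/f and Stim2 fl/fll with Foxp3-YFPcre and called DKO. Both kinds of cell thus carried the floxed alleles in the methods' account, and genotype and Cre expression cannot be told apart. STIM1 and STIM2 are the sensors of the endoplasmic reticulum that open the store-operated calcium channel. Unstimulated WT cells (replicates 3 and 4), unstimulated DKO cells (replicates 1 and 2), and WT and DKO cells kept for 16 h on plate-bound antibodies to CD3 and CD28 at 1 µg/ml (replicates 1 and 2 of each) gave 2 libraries a group. The sample descriptions put the unstimulated libraries on one sequencing lane and the stimulated ones on another, so that stimulation and lane cannot be told apart, while both genotypes lie within each lane.

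The respiratory chain passes electrons from NADH at complex I and from succinate at complex II through coenzyme Q to complex III, and by cytochrome c to complex IV, where oxygen is reduced. Complexes I, III and IV pump protons across the inner mitochondrial membrane, and complex V, the ATP synthase, makes ATP as the protons flow back. Most subunits are encoded in the nucleus and join a small number of core subunits made from mitochondrial DNA, whereas complex II is wholly nuclear-encoded. In T cells, activation brings growth of the mitochondria, and Treg cells are known to depend on respiration.

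Between 11851853 and 16306540 reads per library fell on genes, and 1 read was worth 0.759 to 1.48 normalized counts. The floor of 3 reads equals 2.28 to 4.43 normalized counts, and no member was at or below it in both libraries of any group. The values are not divided by transcript length, so each gene is compared only with itself. Pearson's r of log2 values over the genes was 0.937 to 0.979 between the libraries of a group and 0.822 to 0.960 between groups. Stim1 showed 1139 and 1377 normalized counts in the WT libraries without stimulation and 1538 and 1868 in those labelled DKO (log2 change, the log2 fold change fitted by limma, 0.44 with adjusted p = 0.236), and no genotype difference passed the test for Stim2. The whole-gene counts thus did not show the deletion, and every genotype direction given here rests on the labels. All 8 Treg markers, Foxp3 among them, were detected in every library, with a summed level of 96220 and 89372 normalized counts in unstimulated WT against 42856 and 50361 in unstimulated DKO. The markers in this sum differed unequally. Ctla4 had 37404 and 35119 against 6338 and 17333, and Foxp3, Il2ra, Ikzf2 and Tnfrsf18 were also lower in both DKO libraries. Cd3e had 3424 and 3294 against 3042 and 3156, and the groups overlapped for Cd4 and Cd3g. The sum is therefore not a measure of the share of Treg cells. The unstimulated DKO libraries, replicate 1 most of all, stood apart by their markers of other cells. The 8 macrophage markers summed to 9230 and 1402 normalized counts there against 218 and 264 in unstimulated WT, and all 8 were higher. The 8 B cell markers summed to 3721 and 771 against 312 and 362, and the 6 neutrophil markers to 735 and 342 against 136 and 93. Stimulated replicate 1 of both genotypes also held more of some markers than replicate 2. The B cell sums were 1014 and 180 in stimulated WT and 1519 and 350 in stimulated DKO, those of neutrophils 414 and 226 and 641 and 143, and those of 6 markers of CD8 T and NK cells 472 and 227 and 1091 and 386, while the macrophage sums were 93.7 to 163 in all 4. The part of these cells in the differences between groups was not tested, and results are given with and without the libraries concerned. In RNA of a whole cell population, fewer cells of a type and less RNA per cell cannot be told apart.

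Promoters were read because members of different complexes moved together in the comparisons that follow. For 70 of the 86 members, RefSeq gave the promoter on GRCm38.p6, 250 bases before to 50 after the start. The motifs searched on both strands were the core of nuclear respiratory factor 1 (NRF1), GCATGCGC, that of ETS factors such as GABP, CCGGAAG, that of YY1, AAGATGGC, the cyclic AMP response element, TGACGTCA, and the SP box, GGGCGGG. No motif is contained in another. The NRF1 core stood in 12 of the 70 members' promoters, 17.1%, against 6.02% of the 9882 tested genes with a promoter and 3.05% of all 27025 promoters. The YY1 core stood in 10, 14.3%, against 5.29% of tested genes and 3.19% of all. The ETS core was found in 25.7% of members, 20.3% of tested genes and 9.93% of all, and the response element in 5.71%, 3.63% and 2.03%. The SP box was found in a smaller share of members, 34.3%, than of tested genes, 49.7%, and in 27.9% of all promoters. These shares describe letters in a window and not bound sites. The 120 bases before the start are shown for members of each of the complexes I to V that hold an NRF1 or ETS core. Every motif match is in capitals. The genes were picked for holding such a core, so that their likeness in it follows from the choice and is no result. Sdhd is included as the member of complex II that was called below. Among the other called members described there, Ndufv2 and Atp5b held only the SP box in the whole window. Ndufa1, Ndufa12 and Ndufa4 held none of the motifs. Whether the motifs went with the changes was not tested.
Ndufa11 (complex I, chr17:56717642-56717761, forward strand): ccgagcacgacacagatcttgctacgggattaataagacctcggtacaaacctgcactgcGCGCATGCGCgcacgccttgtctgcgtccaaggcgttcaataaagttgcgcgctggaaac
Sdhb (complex II, chr4:140961151-140961270, forward strand): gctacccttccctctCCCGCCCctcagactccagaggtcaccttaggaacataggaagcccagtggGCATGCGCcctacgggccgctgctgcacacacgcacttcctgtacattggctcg
Sdhd (complex II, chr9:50603850-50603969, reverse strand): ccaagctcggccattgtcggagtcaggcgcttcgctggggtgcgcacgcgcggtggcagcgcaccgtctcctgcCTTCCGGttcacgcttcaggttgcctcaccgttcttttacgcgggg
Uqcr11 (complex III, chr10:80406822-80406941, reverse strand): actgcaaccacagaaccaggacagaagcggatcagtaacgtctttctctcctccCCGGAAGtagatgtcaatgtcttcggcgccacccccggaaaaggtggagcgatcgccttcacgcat
Cox6b1 (complex IV, chr7:30626115-30626234, reverse strand): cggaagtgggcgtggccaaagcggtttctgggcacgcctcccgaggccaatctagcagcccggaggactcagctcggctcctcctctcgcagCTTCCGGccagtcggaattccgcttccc
Atp5k (complex V, chr5:108434400-108434519, reverse strand): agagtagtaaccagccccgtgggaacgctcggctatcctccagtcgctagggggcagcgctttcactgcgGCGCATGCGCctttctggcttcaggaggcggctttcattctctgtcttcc
The pair of NRF1 cores in Ndufa11 and in Atp5k is 1 palindromic run read on both strands. Sdhb holds the NRF1 core on the strand shown and an SP box on the opposite one, and Sdhd and Cox6b1 hold the ETS core on the opposite strand. In the window up to the start, Uqcr11 holds an ETS core.

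The first comparison asked how the transcripts of each complex differed between the genotypes before stimulation. In unstimulated cells the members were mostly lower in the DKO libraries, and 81 of 86 log2 changes were negative with a median of -0.49, against a median of -0.01 over the 15419 genes tested, 50.3% of which were negative. With limma, 7 members fell (adjusted p under 0.05 and more than 1.5-fold) and 0 rose. No member rose with DESeq2, edgeR or the unadjusted p either. The 7 were 8.14% of the members against 3.35% of all genes tested that fell and 1.38% that rose. Both DKO libraries lay below both WT libraries for 64 members, 74.4%, where 27.1% of all genes tested did so. The 6 described here were the complex I subunits Ndufa1, Ndufa12 and Ndufv2, the complex II subunit Sdhd, the complex IV subunit Ndufa4 and the complex V subunit Atp5b. The other 74 negative members did not pass the test, 15 of them with an adjusted p between 0.05 and 0.1.

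**Figure D1:**
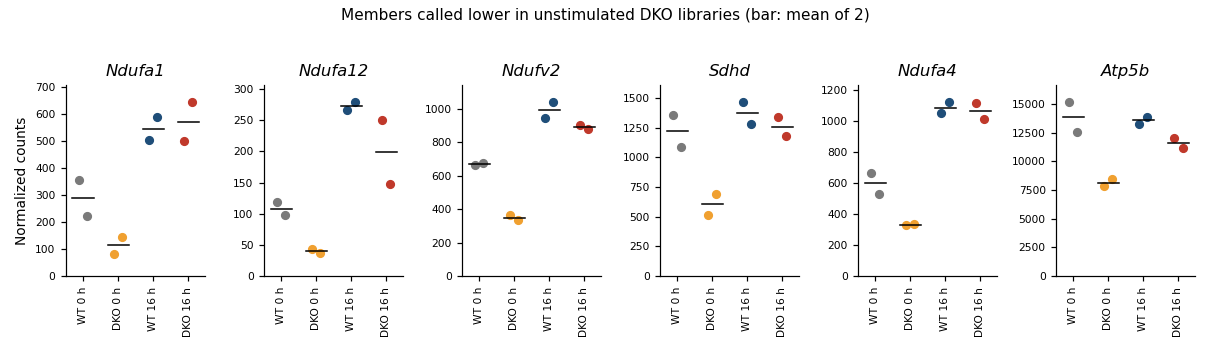
Normalized counts of 6 members called lower in unstimulated DKO libraries, on linear axes from 0. Each point is 1 library, the bar is the mean of 2, and 0 h stands for unstimulated and 16 h for stimulated cells. For every one of the 6 genes, both unstimulated DKO points lie below all 6 other points.

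Ndufa12, an accessory subunit of the matrix arm of complex I, counted 119 and 97.5 in the WT libraries before stimulation (normalized counts) and 43.0 and 37.4 in DKO, and 267 and 279 against 250 and 148 after stimulation. The unstimulated DKO libraries were the lowest of the 8, and the stimulated libraries were above all unstimulated ones. Its log2 change in unstimulated cells was -1.40 (SE 0.33, limma adjusted p = 0.045), or 2.64-fold lower, where SE is the standard error of the fit. Ndufa1, a small accessory subunit of the membrane arm, had 357 and 223 normalized counts in WT against 83.9 and 147 in DKO, a log2 change of -1.34 (SE 0.33, limma adjusted p = 0.049). Replicate 1 of the DKO libraries was the lower one, and the groups did not overlap.

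Among the 7 core subunits of complex I that carry the flavin, the iron-sulfur clusters or the quinone site, all 7 were negative. Ndufv2, which holds an iron-sulfur cluster beside the flavin, had 667 and 680 normalized counts in WT and 366 and 335 in DKO (673 ± 8.90 against 351 ± 21.7, SD, n = 2), a log2 change of -0.94 (SE 0.19, limma adjusted p = 0.025), the lowest adjusted p of the members. Ndufs1, the largest core subunit, had 1088 and 914 normalized counts against 837 and 946. Its groups overlapped, and its log2 change was -0.16 (limma adjusted p = 0.664). The 29 accessory subunits of complex I had a median of -0.48, and the 8 Ndufaf assembly factors a median of -0.32, with 0 called.

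In complex II, which links the citric acid cycle to the chain, all 4 subunits were lower in both DKO libraries. Sdhd, a membrane anchor of the complex, had 1361 and 1086 normalized counts in WT and 515 and 693 in DKO, a log2 change of -1.02 (SE 0.22, limma adjusted p = 0.030). Sdha, the flavoprotein that oxidizes succinate, had 2385 and 2312 against 1999 and 1679, with a log2 change of -0.36 (limma adjusted p = 0.269). The log2 changes of Sdhb, the iron-sulfur subunit, and Sdhc, the other anchor, were -0.72 and -0.67 and did not pass the test. In complex III, 0 of 9 subunits passed the test and the median was -0.49. Cyc1, the cytochrome c1 heme protein, had 666 and 464 normalized counts in WT and 233 and 363 in DKO, and its log2 change of -0.93 carried a SE of 0.35 (limma adjusted p = 0.150). Uqcrc1, a core protein of complex III, lay at 523 and 427 against 386 and 471, and its groups overlapped (log2 change -0.15, limma adjusted p = 0.757, and 0.015 on the log2 scale with equal upper quartiles).

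The median was -0.75 over the 11 subunits of complex IV and -0.60 over the 15 of complex V. Ndufa4, first placed in complex I and now counted to complex IV, had 666 and 530 normalized counts in WT against 330 and 333 in DKO, a log2 change of -0.84 (limma adjusted p = 0.045). Cox4i1, the common isoform of a subunit that binds regulators of the oxidase, had 820 and 643 against 318 and 497, and its log2 change of -0.87 did not pass the test (limma adjusted p = 0.073). Atp5b, the catalytic beta subunit of the F1 head, had the most counts of the members. Its values were 15135 and 12600 normalized counts in WT and 7835 and 8439 in DKO, a log2 change of -0.76 (SE 0.17, limma adjusted p = 0.035), or 1.70-fold lower. Atp5a1, the alpha subunit that stands beside it in the head, had 7968 and 6754 against 3488 and 4928 (log2 change -0.82, limma adjusted p = 0.054). All 5 F1 subunits were lower in both DKO libraries, and 1 of them passed the test.

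Only 5 members were positive in this contrast, and 0 of them passed. Ndufaf6, an assembly factor of complex I, lay farthest against the rest, with 34.5 and 35.5 normalized counts in WT and 50.3 and 48.1 in DKO (log2 change 0.48, limma adjusted p = 0.541). The others were Atp5l, Atp5g2, Cox7c and Ndufb2, named because they complete this count of 5. Without the unstimulated DKO replicate 1, which held the most macrophage markers, the median over the members was -0.48. Replicate 2 stayed in that fit and had a macrophage sum of 1402 normalized counts, against 218 and 264 in unstimulated WT. That fit is therefore not free of these markers. Which members passed the test depended on the library left out. Without DKO replicate 1, or without any 1 of the 4 WT libraries, stimulated ones included, most of the 7 lost their call. Without DKO replicate 2 more members were called. All 7 called members kept a negative sign in each of these fits. Rescaling the libraries to equal totals or equal upper quartiles moved the median of all genes to 0.11 and 0.15 and left 2 and 1 members called. Under the alternatives that left out no library, the median of the members stayed 0.39 to 0.56 below that of all genes. On libraries simulated for this comparison, limma recovered 0 of 50 genes changed 1.5-fold, 8 of 50 changed 2-fold and 30 of 50 changed 3-fold. The simulation changed few genes and only in unstimulated DKO libraries, while 517 genes fell and 213 rose in the data. The adjustment of p is stricter where fewer genes change, so these recoveries may be too low for the data.

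**Figure D2:**
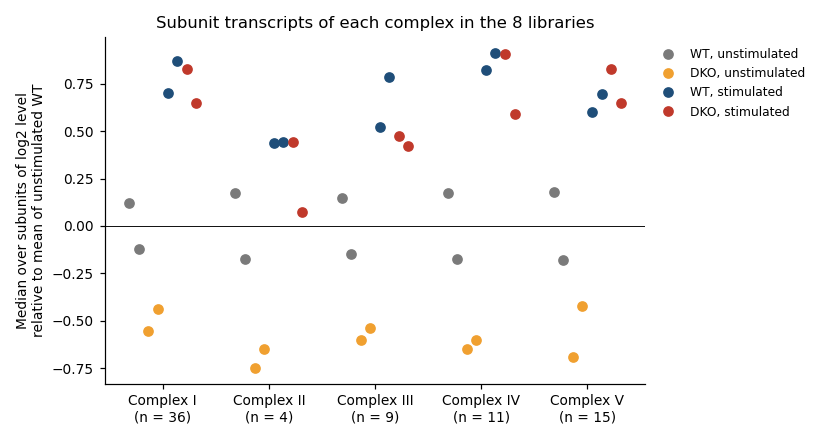
Median over the nuclear-encoded subunits of each complex of the log2 normalized count (pseudocount of 1) relative to that gene's mean in the 2 unstimulated WT libraries. Each point is 1 library, colored by group, and n is the number of subunits. The unstimulated DKO libraries are the lowest points in every complex, from -0.75 to -0.42, and the stimulated libraries of both genotypes lie at 0.07 to 0.91.

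In each complex the unstimulated DKO libraries were the lowest. The stimulated libraries lay above both unstimulated WT libraries in complexes I, III, IV and V, whereas in complex II stimulated DKO replicate 2, at 0.07, lay below unstimulated WT replicate 3, at 0.17. Relative to the mean of unstimulated WT, the median complex I subunit lay at -0.55 and -0.44 in the unstimulated DKO libraries, 0.70 and 0.87 in stimulated WT and 0.83 and 0.65 in stimulated DKO, all on the log2 scale. The complex IV subunits lay at -0.65 and -0.60, at 0.82 and 0.91, and at 0.90 and 0.59. The WT libraries themselves lay 0.12 above and below their mean for complex I and 0.18 for complexes IV and V. The unstimulated DKO and WT libraries did not overlap in any of the 5 complexes, and the gap between them was larger than the distance within each pair for complexes I to IV but not for complex V. With so few libraries no exact permutation test of a single level can reach 0.05.

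The second comparison asked whether the genotypes differed after 16 h of stimulation. Limma called 0 of the 86 members in either direction, against a background of 0.11% of tested genes called lower and 0.162% called higher. In addition, 0 members had an unadjusted p under 0.05 with more than 1.5-fold. DESeq2 and edgeR on recovered reads called 0 members as well. By the limma rule of an unadjusted p under 0.05 with more than 1.5-fold, 6.95% of all genes tested were lower and 5.6% higher. The median over the members was -0.03, against 0.02 over all genes, with 52 negative and 34 positive. Both stimulated DKO libraries lay below both WT libraries for 14 members, 16.3%, against 23.1% of all genes tested, and above them for 9, 10.5%, against 24.3%. The medians by complex were 0.03 for I, -0.18 for II, -0.24 for III, -0.03 for IV and -0.05 for V. The member with the largest positive value was Cox7a2l, listed apart as a subunit paralog or supercomplex factor, with 340 and 389 normalized counts in WT against 443 and 685 in DKO (log2 change 0.60, limma adjusted p = 0.412). Cyc1 had 734 and 975 normalized counts in WT against 773 and 412 in DKO (log2 change -0.58, limma adjusted p = 0.509). The low value came from replicate 2 alone, and the groups overlapped.

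**Figure D3:**
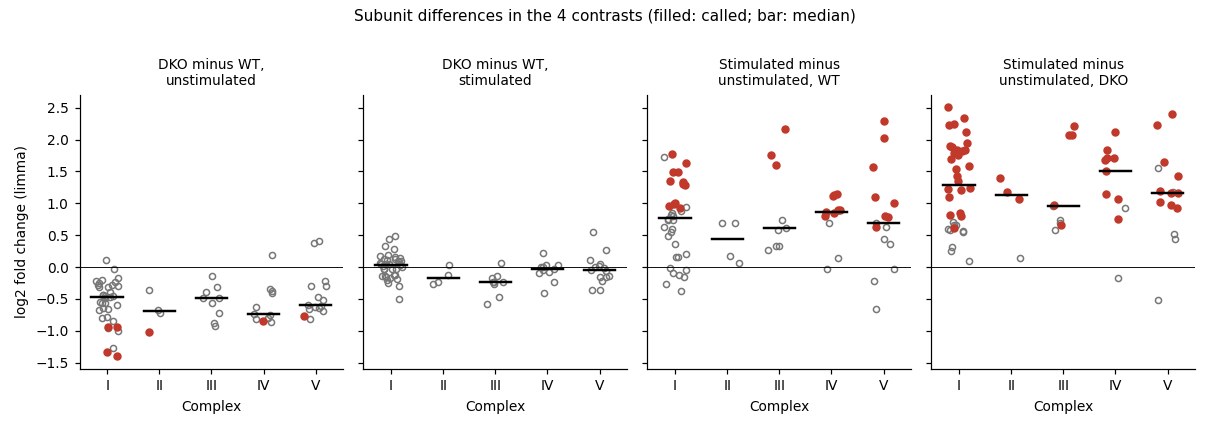
Log2 fold change (limma) of each nuclear-encoded subunit, by complex, in 4 contrasts, DKO minus WT in unstimulated and stimulated cells and stimulated minus unstimulated in WT and DKO cells. Filled points passed the test, open points did not, and the bar is the median of the complex. The medians lie between -0.75 and -0.47 in the first contrast, between -0.24 and 0.03 in the second, between 0.43 and 0.87 in the third and between 0.95 and 1.51 in the last.

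The third comparison set stimulated against unstimulated cells within each genotype, and the sequencing lane changed with it. In WT cells 34 members rose and 2 fell, with a median of 0.75 on the log2 scale over the members and 0.01 over all genes. The 34 were 39.5% of the members, where 10.2% of all genes tested rose and 13.1% fell. Both stimulated WT libraries lay above both unstimulated ones for 63 members, 73.3%, against 35% of all genes. In DKO cells 55 members rose, 64.0%, and 1 fell, with a median of 1.16, where 13% of all genes rose and 12% fell, and 77 members, 89.5%, lay above against 30.8% of all genes. Of the 34 members that rose in WT cells, 32 rose in DKO cells too. Without 1 of the 4 WT libraries the members that rose in WT cells numbered 6 to 16, and with equal totals, which moved the median of all genes to 0.52, they numbered 68. The unstimulated DKO libraries enter the second of these contrasts with the low levels and the macrophage markers given above, and without replicate 1 the members that rose in DKO cells numbered 52. Without stimulated replicate 1, which held more B cell and neutrophil markers, they numbered 43 in DKO and 12 in WT cells.

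By complex, 12 of 36 subunits of complex I rose in WT and 26 in DKO cells, 0 and 3 of 4 in complex II, 3 and 5 of 9 in complex III, 8 and 9 of 11 in complex IV, and 8 and 10 of 15 in complex V. Complex IV had the highest medians, 0.87 in WT and 1.51 in DKO cells. Its subunit Cox7a2 went from 435 and 349 normalized counts to 894 and 839 in WT (log2 change 1.15, limma adjusted p = 0.00546) and from 210 and 256 to 993 and 1027 in DKO (log2 change 2.12, limma adjusted p = 3.7e-04). The 4 stimulated libraries lay between 839 and 1027, above all 4 unstimulated ones. Cox6b1 rose by 1.13 and Cox5a by 1.12 on the log2 scale in WT cells, and Cox4i1 by 0.81 in WT and 1.71 in DKO cells.

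The largest called rise in WT cells was that of Atp5g2, 1 of the 3 genes that encode the subunit c of the membrane rotor. It had only 7.55 and 10.3 normalized counts in unstimulated WT and 65.5 and 34.2 in stimulated WT libraries (log2 change 2.30, SE 0.59, limma adjusted p = 0.020). Its whole transcript has a near-identical copy elsewhere in the genome, so that its reads are uncertain. Uqcr11, a small subunit of complex III of which 85.4% lies in a copy, rose by 2.16 on the log2 scale. Atp5e, the epsilon subunit in the stalk of F1, had no such copy. It went from 351 and 233 to 1052 and 1309 normalized counts in WT (log2 change 2.03, SE 0.25, limma adjusted p = 9.0e-04) and from 212 and 188 to 1053 and 1061 in DKO (log2 change 2.40, limma adjusted p = 3.7e-04). The 4 stimulated libraries lay far above the unstimulated ones for this gene. Ndufc1 of complex I and Uqcrq of complex III rose by 1.78 and 1.75 in WT cells.

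In DKO cells the largest called rises were those of Ndufs5, with a log2 change of 2.51 from 6.29 and 4.01 normalized counts, Atp5e, Ndufa1 with 2.35, Ndufb6 with 2.24 and Ndufa12 with 2.23. Except for Atp5e they are accessory subunits of complex I, and Ndufs5 rests on few reads. It had 12.95 and 8.86 normalized counts in unstimulated WT and 38.9 and 28.7 in stimulated DKO libraries. Ndufs5 met the minimum mean for members only through its stimulated libraries, a choice that favours a rise. In addition, 64.3% of its transcript has a near-identical copy, so that its reads are uncertain. In complex II, Sdhb went from 220 and 306 to 715 and 489 normalized counts in DKO (log2 change 1.18, limma adjusted p = 0.011), Sdhc rose by 1.40 and Sdhd by 1.07. In WT cells the log2 changes of Sdhb and Sdhc were both 0.70 and did not pass the test. Ndufv1 and Ndufv2, which form the flavin site of complex I, rose by 1.42 and 1.35 in DKO cells, and the complex III subunits Uqcrfs1 and Uqcrc2 by 0.97 and 0.66. Atp5c1, the gamma shaft of F1, rose by 0.93.

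The members that fell were not structural subunits. Cox7a2l had 845 and 709 normalized counts in unstimulated and 340 and 389 in stimulated WT libraries, and fell by 1.09 on the log2 scale (SE 0.29, limma adjusted p = 0.025). In DKO cells its groups overlapped. Atp5sl, which is named after the ATP synthase but takes part in the assembly of complex I, had 290 and 245 against 115 and 143 in WT (log2 change -1.05, limma adjusted p = 0.030) and 215 and 268 against 104 and 152 in DKO (log2 change -0.93, limma adjusted p = 0.045). Its 4 stimulated libraries lay below its 4 unstimulated ones. It had no near-identical copy, while 93.6% of the transcript of Cox7a2l had one.

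**Figure D4:**
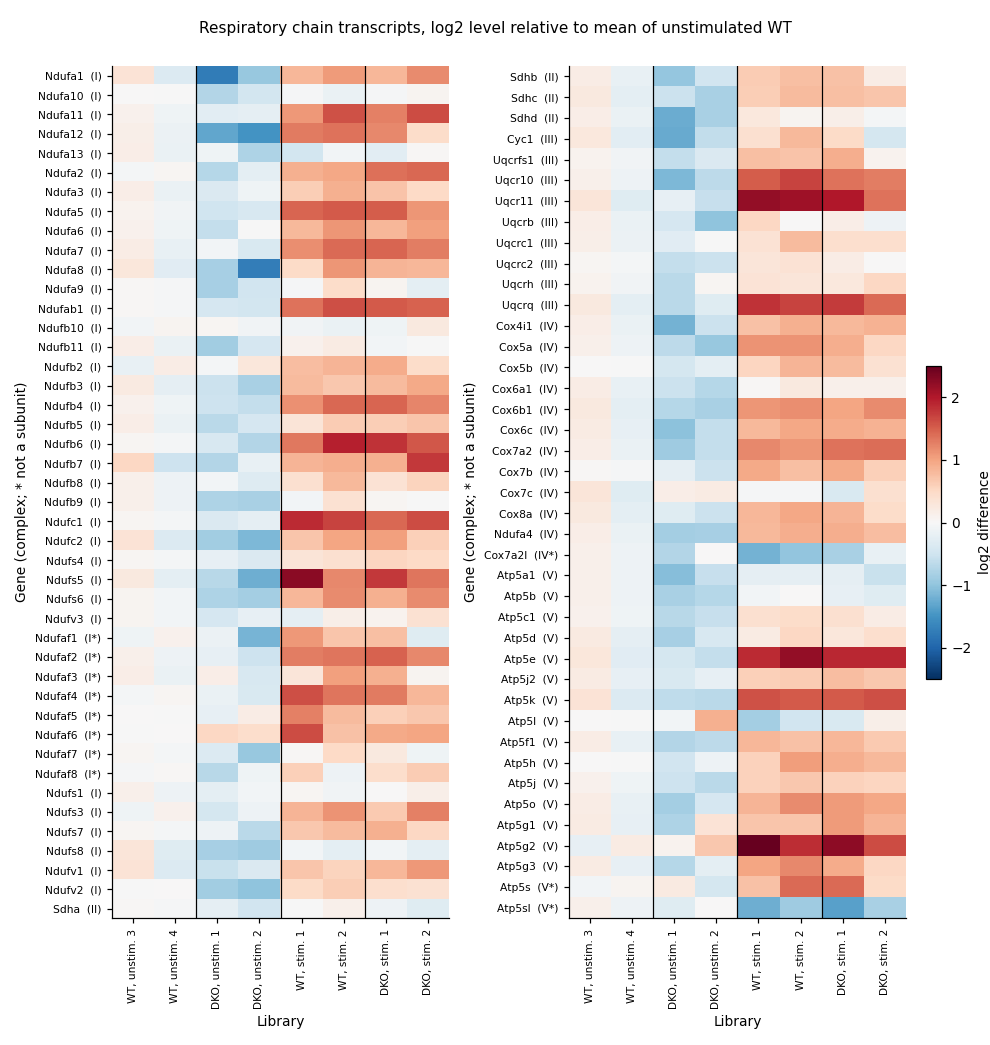
Log2 level of 85 members in the 8 libraries relative to the mean of each gene in unstimulated WT, with the complex in parentheses and a star for genes that are not subunits. Blue is lower and red higher, and lines part the groups. The unstimulated DKO columns are mostly blue, with 81 of 86 members negative in that contrast, and the stimulated columns are mostly red in both genotypes, except for Cox7a2l, Atp5sl and a few others.

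The interaction, the stimulation difference in DKO cells minus that in WT cells, tested whether the genotypes responded unequally. Its log2 value was positive for 76 of 86 members with a median of 0.45, against 0.05 over all genes tested. Limma called 0 members and 0 of all genes tested, 0%, and 18 members had an unadjusted p under 0.05 with a positive value of more than 1.5-fold, 20.9%, where 4.57% of all genes tested had this and 3.52% the opposite. The largest value was that of Ndufa1, 1.40 (SE 0.47, limma adjusted p = 0.556). A larger rise in DKO than in WT cells was therefore not shown for any single gene. The interaction equals the genotype difference in stimulated cells minus that in unstimulated cells. It thus draws on the same low unstimulated DKO libraries as the first comparison and is no separate support for it. DESeq2 and edgeR called 0 members for the interaction too.

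The size of the stimulation difference went with the length of the coding sequence. For the 82 members with a transcript in GENCODE vM1, Spearman's rho across genes between coding length and log2 change was -0.50 in WT and -0.49 in DKO cells, and -0.01 for the genotype difference in unstimulated cells. The genes share the same 8 libraries and are not independent replicates, and this relation was looked at after the values were seen. The 58 members with a coding length under 600 bases had medians of 0.86 in WT and 1.46 in DKO cells, and the 24 longer ones 0.50 and 0.80. For the genotype difference in unstimulated cells these medians were -0.48 and -0.62. Only 10878 of the 15419 genes tested had a length by symbol, so that a comparison with other genes covers these and not all. In those with a length the sign was the same, with rho of -0.19 and -0.24, and medians of 0.36 and 0.52 under 600 bases against -0.06 and -0.02 above. The relation of stimulation to length is therefore not given as particular to the members. For the genotype difference in unstimulated cells, all genes with a length had medians of -0.22 under 600 bases and -0.09 for the longer ones, with a rho of 0.13. Short genes as a whole were thus also lower in unstimulated DKO libraries, by less than the short members.

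**Figure D5:**
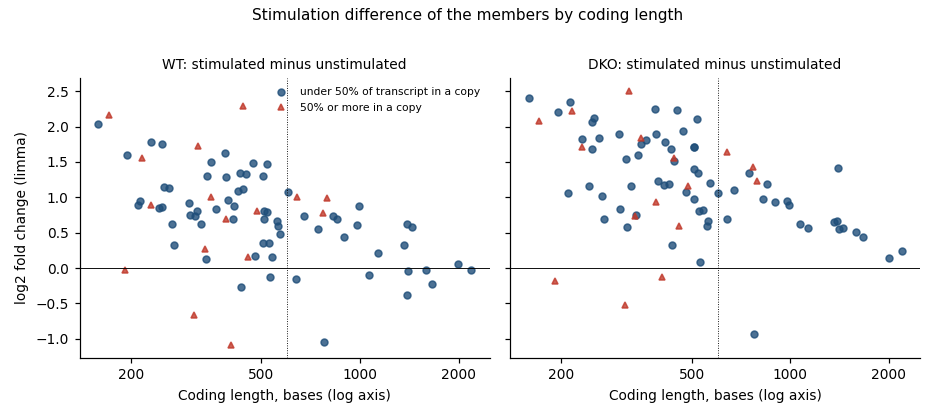
Stimulation difference (log2 fold change, limma) of the 82 members with a known coding length, in WT cells on the left and DKO cells on the right, against coding length in bases on a log axis. Triangles are the 16 members with 50% or more of the transcript in a near-identical copy, and the dotted line is at 600 bases. Members under 600 bases have medians of 0.86 and 1.46, and the longer ones of 0.50 and 0.80.

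Many small subunits have processed copies in the genome, and reads could have been split among them or dropped. Of the 82 members, 53 had no stretch of 50 bases or more with at least 96% identity elsewhere in NCBIM37, and 16 had 50% or more of the transcript in such a copy. The medians of the 53 were -0.49 for the genotype in unstimulated cells, -0.03 in stimulated cells, and 0.67 and 1.06 for stimulation in WT and DKO cells. Those of the 16 were -0.51, -0.02, 0.85 and 1.33. The members without a copy thus held the same directions as the rest, and 5 of the 7 that fell in unstimulated DKO cells were among them.

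Several complex subunits exist as paralogs used in different tissues, and the Treg cells held the common ones. Cox4i1, Cox6a1, Cox6b1, Cox7a2 and Cox8a, the widespread forms, were members in every library. Their counterparts of lung, muscle, heart and testis were below the minimum for members, with means of 5.28 normalized counts for Cox4i2, 1.41 for Cox6a2, 5.26 for Cox6b2, 9.07 for Cox7a1 and 1.01 for Cox8b, and Cox7b2 and Cox8c were at 0 in all 8 libraries. A count of 0 allows up to 3 reads, 2.28 to 4.43 normalized counts. Ndufa4l2, a paralog of Ndufa4 known from hypoxic cells, had a mean of 2.38. Of the 3 genes for subunit c, Atp5g3 had 1191 and 895 normalized counts in unstimulated WT and 2044 and 2375 in stimulated WT libraries, while Atp5g1 had 60.4 and 45.8 against 85.7 and 85.8.

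Genes that serve the chain without being part of it were counted from lists of their own. Of 38 tested assembly factors other than Ndufaf genes, 0 passed the genotype test in unstimulated cells, with 22 negative and a median of -0.07, where the subunits had a median of -0.56. With stimulation 9 rose in WT and 12 in DKO cells and 0 fell, with medians of 0.71 and 0.80. Uqcc2, an assembly factor of complex III, went from 35.6 and 31.0 to 104 and 162 normalized counts in WT (log2 change 1.93, limma adjusted p = 0.014). Of 17 genes of electron carriers and coenzyme Q synthesis, 2 fell in unstimulated DKO cells. They were Etfa, a subunit of the flavoprotein that brings electrons from fatty acid oxidation (log2 change -0.90, limma adjusted p = 0.047), and Coq8a, an atypical kinase of coenzyme Q synthesis. Coq8a had 771 and 734 normalized counts in WT and 97.5 and 142 in DKO, without overlap, a log2 change of -2.67 (limma adjusted p = 0.014). The gene Cycs for cytochrome c, the carrier between complexes III and IV, had 47.5 and 67.9 normalized counts in WT against 118 and 123 in DKO. This was the reverse of most members, and its log2 change of 1.07 did not pass the test (limma adjusted p = 0.122). Near-identical copies were searched for members only, so that whether reads of Cycs were split among copies was not tested.

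The subunits made from mitochondrial DNA went the other way with stimulation. Of 13 genes 7 were tested, all 7 were negative in both genotypes, and 4 fell in WT and 5 in DKO cells, with medians of -0.77 and -0.82. These values hold for the deposited scaling. Equal totals moved the median of all genes to 0.52 in WT and 0.35 in DKO cells, and the falls would be smaller on that scale. Cytochrome b of complex III, mt-Cytb, had 70359 and 66474 normalized counts in unstimulated and 34511 and 35072 in stimulated WT libraries (log2 change -0.98, limma adjusted p = 0.009). In unstimulated cells 0 of the 7 passed the genotype test, with a median of -0.19. Of 21 tested genes of mitochondrial transcription and biogenesis, 0 passed a genotype test in either state. With stimulation 7 rose and 2 fell in WT cells. The 2 that fell, named to complete the count, were Polg2, a subunit of the mitochondrial DNA polymerase, and Gabpb1, the partner of Gabpa in GABP. Gabpb1 went from 2313 and 2948 to 1167 and 1017 normalized counts (log2 change -1.26, limma adjusted p = 0.034). Myc, a transcription factor that drives cell growth, went from 1128 and 1077 to 4677 and 5418 normalized counts in WT (log2 change 2.19, limma adjusted p = 7.3e-04), and the coactivator Pprc1 rose by 1.65. Nrf1 and Gabpa, the genes of NRF1 and of a part of GABP, had log2 changes of -0.34 and -0.06 in WT cells, and neither passed the test. Whether these factors bound the promoters shown above was not tested.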

How the data were processed

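The polyadenylated RNA in 8 libraries was analysed, 2 libraries in each of 4 groups taken from the labels. The deposited signal values are normalized counts. The authors scaled the reads on each gene by a factor particular to the library, and the values are rounded to 2 decimals. 100% of the values were whole multiples of 1 read (tolerance 0.006 normalized counts), from which reads were restored. The methods name Bowtie, NCBIM37, HTSeq and Picard, while the submitters' processing notes name STAR 2.7, mm10, bcl2fastq 1.8.4 and DESeq2, and the library kits named also differ, so that gene coordinates from the table's build and the strand of the counts were not used. The columns of no sample numbered 0. The table has no columns of the authors' own comparisons.

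Log2 values (pseudocount of 1) were fitted with limma 3.58.1 in R 4.3.3 (lmFit, eBayes with a trend) for the 15419 genes with a mean of at least 10, in 1 model of the 4 groups. This replaced a count test because the values are normalized. Tests were 2-sided, and p-values were adjusted over all genes within each of 5 contrasts by the method of Benjamini and Hochberg. A gene was called, and is said to have risen or fallen, where its fold exceeded 1.5 and its adjusted p was under 0.05. Fold changes are on the scale with the pseudocount and understate those of low genes. As the labels do not tie replicates to separate cultures, p-values measure the spread between these libraries, which may be technical in part. Depth limits precision as given with the results, and intervals from reads would cover counting error only. The genes named were the catalytic and core subunits, the paralog pairs, per contrast and direction the 5 called members of greatest change, if their libraries did not overlap, and the member farthest against the median in each genotype contrast. The values of 1 member are not reported here. Members and lists were chosen with earlier results of these data known. Positions of promoters are those of RefSeq on GRCm38.p6, and copies were searched with blastn.

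As alternatives, pseudocounts of 0.1 and 5 were used, and every gene above 0, a minimum mean of 100, equal totals, equal upper quartiles, quantile normalization, edgeR 4.0.16 and DESeq2 1.42.0 on recovered reads, the 4 libraries of a contrast, the replicate number as a block, other call rules, subunits only, and each library left out were tried. On simulated data of 15419 genes with 2 libraries against 2, limma called 36 of 50 genes changed 4-fold and made 6 false calls.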

Additional observations from a re-analysis of the deposited data

How the results depend on the processing

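The 7 members called lower in unstimulated DKO cells became 1 with every gene above 0 tested, 2 with equal totals, 1 with equal upper quartiles, 14 with DESeq2, 0 in a fit to the 4 libraries of the contrast, 32 by the unadjusted p, and 0 to 13 with a library left out, while the median over the members ranged from -0.66 to -0.38 with a library left out. All 7 were negative under every alternative, and Uqcrc1 turned to 0.015 with equal upper quartiles. By the unadjusted p with more than 1.5-fold, 1705 of the 15419 genes tested were lower and 1338 higher, against 32 and 0 of the 86 members. The counts under the other alternatives are given without the share of all genes in the same fit. With stimulation in WT cells, the members called higher became 68 with equal totals (median 1.26) and 6 to 40 with a library left out, and those called lower became 1 with every gene above 0, 0 with equal totals or subunits only, and 0 to 2 with a library left out. In DKO cells the median was 1.55 with equal totals and 1.02 to 1.28 with a library left out, and the 1 member called lower, Atp5sl, became 0 with every gene above 0, equal totals, edgeR, the 4 libraries of the contrast or subunits only, and 0 to 2 with a library left out. The median of the interaction was 0.30 with equal upper quartiles and 0.33 to 0.61 with a library left out, and 18 members were called higher by the unadjusted p. The causes of these shifts were not tested. The genotype difference in stimulated cells had 0 calls among the members in every fit. Of the fold changes of named genes under all alternatives, 118 lost their call, 17 gained one and 1 reversed.

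With the replicate block, the members called were 0 in either direction for the genotype difference in stimulated cells, and 51 higher and 0 lower for stimulation in DKO cells, against 55 and 1. Samples of the same number shared deviations with r = 0.17 between stimulated WT and DKO and r = 0.26 between unstimulated and stimulated DKO, each over 2 pairs, so that the number was not taken as a pairing. With 2 libraries a group, fits that leave out 1 assume that the lone library varies like the other groups. Depth did not bring any member to the floor in a whole group, whereas Ndufs5 and Atp5g2 rest on few reads.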
